A study of Mus musculus with 56 samples.

Results

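The comparison described here set the visceral adipose tissue (VAT) of mice fed only by day against that of mice fed only by night, at 1 clock time, zeitgeber time 20 (ZT20, counted in hours from lights on). It comprised the 8 VAT libraries that the sample titles place at ZT20, 4 from daytime-restricted feeding (DRF) and 4 from nighttime-restricted feeding (NRF), out of 56 libraries of this tissue. The study asked how the time of feeding sets daily gene expression in peripheral tissues, and sampled each regimen across the day. All mice of both regimens were female C57BL/6J animals on normal chow under 12 h of light and 12 h of dark, and were about 9 weeks old after 7 days on their regimen. At ZT20, in the later dark phase, the food of NRF mice was available and that of DRF mice was not, so that feeding regimen and current access to food differed together and cannot be told apart within this time point. The tissue was whole visceral fat, not sorted cells, and each replicate was a separate library; 4 libraries per group give the spread on which each test rests.

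White adipose tissue stores fatty acids as triglyceride after meals, when insulin promotes glucose uptake, glycogen and lipid synthesis and restrains lipolysis, and releases them in fasting, when catecholamines raise cyclic AMP. Adipocytes also hold a molecular clock, in which BMAL1 (encoded by Arntl) and CLOCK activate the Per, Cry, Nr1d1, Nr1d2 and Dbp genes through E-box sequences. The PER and CRY proteins repress that activity, while the REV-ERB receptors (Nr1d1 and Nr1d2) and the ROR receptors compete at a separate element, the RORE, to set the level of Arntl.

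Levels are given as CPM, the reads of a gene scaled to 1000000 reads of the effective library size, after whole read counts were read back from the deposited values, and each difference is DRF minus NRF on the log2(CPM + 1) scale, with its standard error (SE) from limma and a p-value adjusted by the Benjamini-Hochberg method over all genes tested. A gene was called higher or lower at an adjusted p under 0.05, and folds are ratios of mean CPM. The 8 libraries held between 31165898 and 40966834 recovered reads and 22442 to 23804 genes with at least 1 read. The first principal component took 53.9% of the variance and separated all DRF from all NRF libraries, and the second, with 15.9%, set DRF replicate 1 apart, for which reason the counts of each gene list are also given without it. The summed level of 7 adipocyte markers was 19859 to 28430 CPM in DRF and 17136 to 21165 CPM in NRF, and Adipoq, Plin1, Cidec, Lep, Lipe, Fabp4 and Pparg were each present in all 8 libraries.

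Of 15543 genes tested, 2052 were higher and 2321 were lower in DRF than in NRF at ZT20, which is 28.1% of the genes in all, 13.2% higher and 14.9% lower, with a median difference of -0.02 on the log2 scale. The log2 difference was at least 1 in size for 197 of the higher and 174 of the lower genes, and at least 2 for 12 and 9; on the log2(CPM + 1) scale these counts leave out low genes with larger ratios of CPM. Without DRF replicate 1 the counts were 2483 higher and 2496 lower of 15466 tested, 32.2% in all. Each ZT20 count of a gene or marker list below is read beside these shares of all genes. Among 117 genes given here with a value or a call at ZT20, the calls of Alas2, Cfd, Clock, Col18a1, G0s2, Gramd1b, Hmgcs1, Lep and Tm7sf2 were lost when the deposited values themselves were fitted, and those of Acly, Acot1, Cdk1, Dio2, Scd2, Slc2a4 and Tm7sf2 when all 56 libraries shared 1 fit. Without a filter on low genes Acly, Cfd, Gramd1b and Pnpla2 were not called.

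Genes were ranked among those called, with groups that did not overlap and a mean of at least 5 CPM, and the largest rise was that of Pck1 (chr2:173153048-173159273, GRCm38, plus strand), which encodes the cytosolic phosphoenolpyruvate carboxykinase that adipocytes use to make glycerol phosphate without glucose. Its level was 1692, 2976, 1405 and 2123 CPM in the DRF libraries and 65.8, 49.9, 39.4 and 73.3 CPM in the NRF libraries. Every DRF library was far above every NRF library, the mean being 35.9-fold higher, for a difference of 5.12 ± 0.23 (SE), adjusted p = 6.69e-07. The 10 largest rises under this rule were Pck1, Nr1d1, Nr1d2, Mycl, Hcar1, Peg3, Hcar2, Rasd1, Adrb3 and Dbp. Mycl, a transcription factor gene, rose by 2.16, Peg3, an imprinted zinc finger gene, by 2.05, and Rasd1, a small GTPase induced by dexamethasone, by 1.95. Hcar1 and Hcar2 encode the receptors for lactate and for 3-hydroxybutyrate, both of which restrain lipolysis in adipocytes; they rose by 2.14 and 2.04.

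Among the largest falls under the same rule were Ppp1r3b, Angptl8, Mid1ip1, Smtnl2, Osgin1, Dnmt3l, Serpina3b, Mir6392 and Mvd. Ppp1r3b (chr8:35375739-35388139, GRCm38, plus strand) encodes a subunit that brings protein phosphatase to glycogen and so activates glycogen synthase, and its level was 31.7, 53.3, 88.3 and 33.7 CPM in the DRF libraries and 753, 641, 525 and 470 CPM in the NRF libraries. Its groups were separated by a wide gap, with a mean 11.5-fold lower in DRF (-3.60 ± 0.28 SE, adjusted p = 1.16e-05). Mid1ip1, a partner of acetyl-CoA carboxylase, changed by -2.31, Smtnl2 by -2.29, Osgin1, an oxidative stress response gene, by -2.22, Dnmt3l by -2.08 and Serpina3b by -2.07. Mir6392 (-2.04) lies inside the lipogenic gene Pnpla3 on the same strand, and reads of both genes cannot be told apart.

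The clock genes were nearly all changed. Of 5 activators 1 was higher and 4 were lower (median -0.56), of 10 repressors 4 were higher and 5 lower (median -0.28), and of the 4 genes for PAR bZIP factors and NFIL3, which drive or repress clock output through the D-box, 2 were higher and 2 lower (median 0.08). Groups did not overlap for 17 of these 19 genes, beside 29.2% of all genes tested. The same counts of calls were found without DRF replicate 1, and with the deposited values 2 activators were lower.

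Nr1d1 (chr11:98767932-98775333, GRCm38, minus strand), the gene for REV-ERB alpha, was at 43.5, 45.9, 54.9 and 37.9 CPM in the DRF libraries and 4.41, 4.59, 4.82 and 4.11 CPM in the NRF libraries. The NRF libraries lay below every library of either regimen at ZT8 and ZT16, and the DRF libraries stood 10.2-fold higher on average (3.07 ± 0.11 SE, adjusted p = 1.31e-07). Nr1d2 (chr14:18204054-18239127, GRCm38, minus strand), for REV-ERB beta, had 42.5, 43.0, 41.6 and 38.1 CPM in the DRF libraries and 9.73, 5.79, 7.79 and 7.62 CPM in the NRF libraries. Again no library of one regimen reached the range of the other (2.29 ± 0.12 SE, adjusted p = 2.87e-06). In the opposite direction, Arntl (chr7:113207465-113314126, GRCm38, plus strand) read 15.1, 18.4, 16.8 and 13.1 CPM in the DRF libraries and 30.9, 36.3, 33.8 and 36.6 CPM in the NRF libraries. All NRF values exceeded all DRF values, with a difference of -1.08 ± 0.10 (SE), adjusted p = 4.67e-05. Its partners Clock and Npas2 also fell, by 0.40 and 1.17, while among the ROR genes Rora rose by 0.81.

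Within the Per family the direction was not shared. Per1 read 46.4, 47.6, 46.2 and 50 CPM in the DRF libraries and 22.8, 23.2, 33.6 and 33.1 CPM in the NRF libraries, and Per3 read 69.0, 47.4, 41.7 and 58.3 CPM in the DRF libraries and 24.4, 17.2, 20.6 and 18.6 CPM in the NRF libraries. Both were higher in every DRF library than in any NRF library, by 0.76 ± 0.13 (SE), adjusted p = 0.00118 and 1.36 ± 0.15 (SE), adjusted p = 9.40e-05, whereas Per2 fell by 0.85 (SE 0.13). Cry1, a core repressor, read 21.8, 24.5, 21 and 20.8 CPM in the DRF libraries and 54.6, 65.3, 52.9 and 48.0 CPM in the NRF libraries, and every NRF library stood well above every DRF library (-1.28 ± 0.10 SE, adjusted p = 1.13e-05). Cry2 fell by 0.48, and the E-box repressors Bhlhe40 and Bhlhe41 fell by 1.74 and 1.37. Ciart was the 1 repressor that was not called (difference -0.09, SE 0.12, adjusted p = 0.590).

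The output factors also moved in both directions. Dbp (chr7:45705088-45710203, GRCm38, plus strand), a PAR bZIP activator, was at 28.2, 30, 33.5 and 38.9 CPM in the DRF libraries and 8.50, 6.09, 11.5 and 7.17 CPM in the NRF libraries. Nfil3 (chr13:52967209-52981073, GRCm38, minus strand), the repressor that binds the same D-box, was at 10, 13.2, 11.9 and 8.89 CPM in the DRF libraries and 49.6, 44.1, 41.7 and 38.5 CPM in the NRF libraries. DRF libraries thus held more of the activator (1.87 ± 0.16 SE, adjusted p = 2.25e-05) and less of the repressor (-1.90 ± 0.12 SE, adjusted p = 4.67e-06), with no overlap for either gene. Tef rose by 0.68 and Hlf fell by 0.52.

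**Figure D1:**
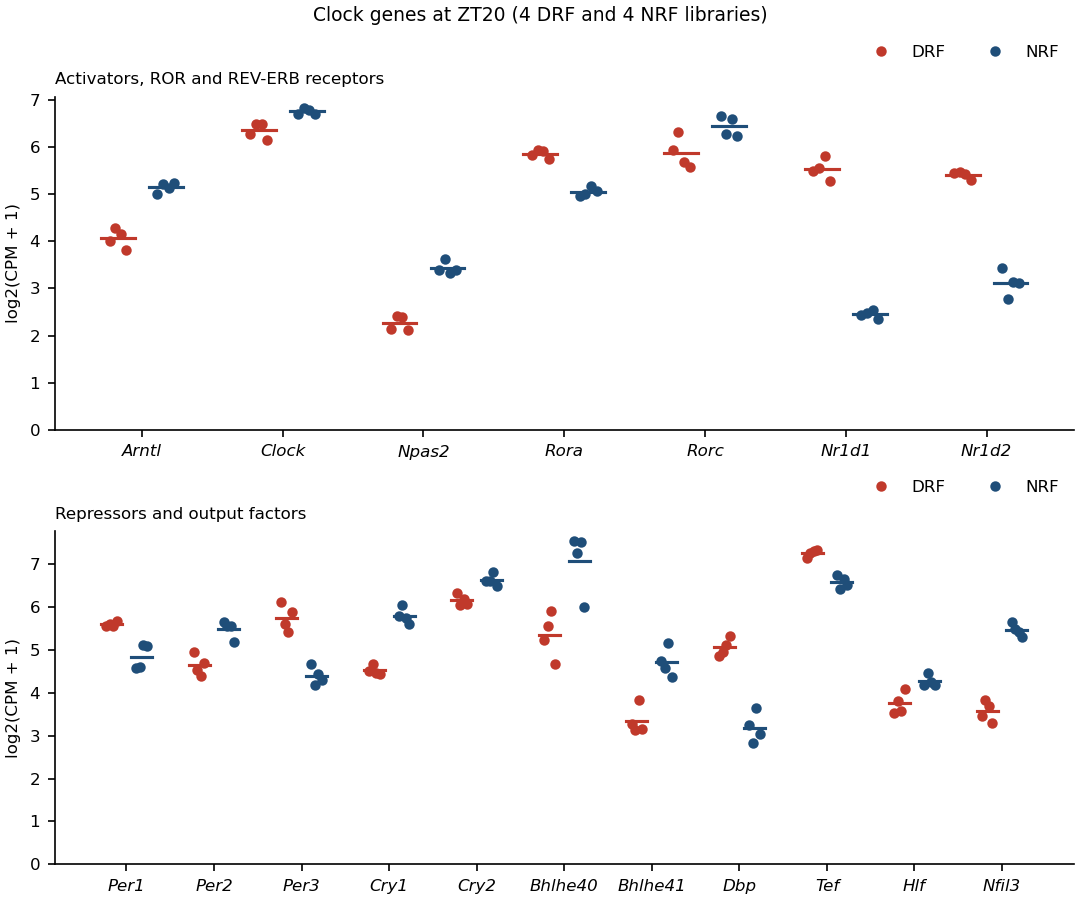
Levels of clock genes at ZT20, as log2(CPM + 1) on the vertical axis, for activators and nuclear receptors above and for repressors and output factors below. Points are the 4 DRF and 4 NRF libraries and bars are group means; Nr1d1, Nr1d2, Dbp, Per1 and Per3 stand higher in DRF, and Arntl, Cry1, Bhlhe40 and Nfil3 stand higher in NRF.

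Promoter stretches of 4 of these genes are printed here because they hold the letters of elements through which clock factors act, and because Per1, Per3, Cry1 and Nfil3 moved in both directions. They are RefSeq sequences of GRCm38.p6, read 5′ to 3′ on the strand of the gene, and capitals mark the matches to an E-box (CACGTG), a D-box (TTATGNAA) or a RORE (TAGGTCA or its reverse complement). Both strands were searched in 300-base windows from 250 bases before to 50 bases after the start of 27025 gene symbols, of which 8.09% held the E-box letters, 3.99% the D-box letters and 2.97% the RORE letters, and none of the printed matches overlap. The start is that of the RefSeq transcript, whereas the gene spans given above are those of GENCODE, and the matches of Per1 and Nfil3 lie inside the GENCODE span. The E-box letters were found in 4 of the 8 matched clock repressors (Per1, Cry1, Bhlhe41 and Ciart) and the D-box letters in 2 (Per1 and Per3), and a match is a description of the sequence only. Per1, with an E-box 166 and a D-box 24 bases before the start, is shown at chr11:69098769-69098948 on the plus strand, from the first of its 2 listed transcripts, Per3, with D-boxes 205 and 158 bases before the start, at chr4:151044801-151044880 on the minus strand, Cry1, with an E-box 60 bases before the start, at chr10:85185055-85185154 on the minus strand, and Nfil3, with a RORE in reverse complement 12 bases before the start, at chr13:52981040-52981139 on the minus strand.
Per1: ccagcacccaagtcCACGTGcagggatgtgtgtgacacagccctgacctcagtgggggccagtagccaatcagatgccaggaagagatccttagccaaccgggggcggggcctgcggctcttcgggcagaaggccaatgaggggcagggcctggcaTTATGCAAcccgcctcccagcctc
Per3: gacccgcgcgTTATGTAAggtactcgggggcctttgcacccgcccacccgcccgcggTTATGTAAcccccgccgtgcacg
Cry1: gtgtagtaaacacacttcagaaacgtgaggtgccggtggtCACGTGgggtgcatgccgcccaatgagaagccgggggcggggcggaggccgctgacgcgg
Nfil3: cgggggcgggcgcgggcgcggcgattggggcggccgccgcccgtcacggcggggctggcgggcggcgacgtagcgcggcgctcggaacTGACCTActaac
Neither Dbp binding nor NFIL3 binding was measured in these libraries.

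Genes for the release of fatty acids were, where called, mostly higher in DRF. Of 13 genes for lipolysis and the lipid droplet, 6 were higher and 2 lower, with a median of 0.43; without DRF replicate 1, 9 were higher and 2 lower. Adrb3 (chr8:27225776-27250616, GRCm38, minus strand), the beta-3 adrenergic receptor of adipocytes, read 604, 501, 326 and 482 CPM in the DRF libraries and 185, 78.3, 83.8 and 196 CPM in the NRF libraries. The lowest DRF library exceeded the highest NRF library (1.90 ± 0.30 SE, adjusted p = 0.000848). Lipe, the hormone-sensitive lipase, read 1442, 1687, 1664 and 1481 CPM in the DRF libraries and 715, 662, 958 and 754 CPM in the NRF libraries, again with no overlap (1.03 ± 0.14 SE, adjusted p = 0.000285), and Pnpla2, for the adipose triglyceride lipase, rose by 0.60 (adjusted p = 0.0110). Pde3b, the phosphodiesterase through which insulin lowers cyclic AMP, had 498, 682, 516 and 521 CPM in the DRF libraries and 211, 182, 185 and 188 CPM in the NRF libraries. It too rose (1.52 ± 0.11 SE, adjusted p = 8.18e-06), the DRF library with the highest level being replicate 2. The 2 members that fell were Plin2, a coat protein of lipid droplets (-1.45 ± 0.19 SE, adjusted p = 0.000311), and G0s2, an inhibitor of the adipose triglyceride lipase, by 0.93. The summed adipocyte markers given above, Lipe among them, did not differ at the threshold between the regimens (exact two-sided permutation test, p = 0.0571), and their part in this list was not tested.

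**Figure D2:**
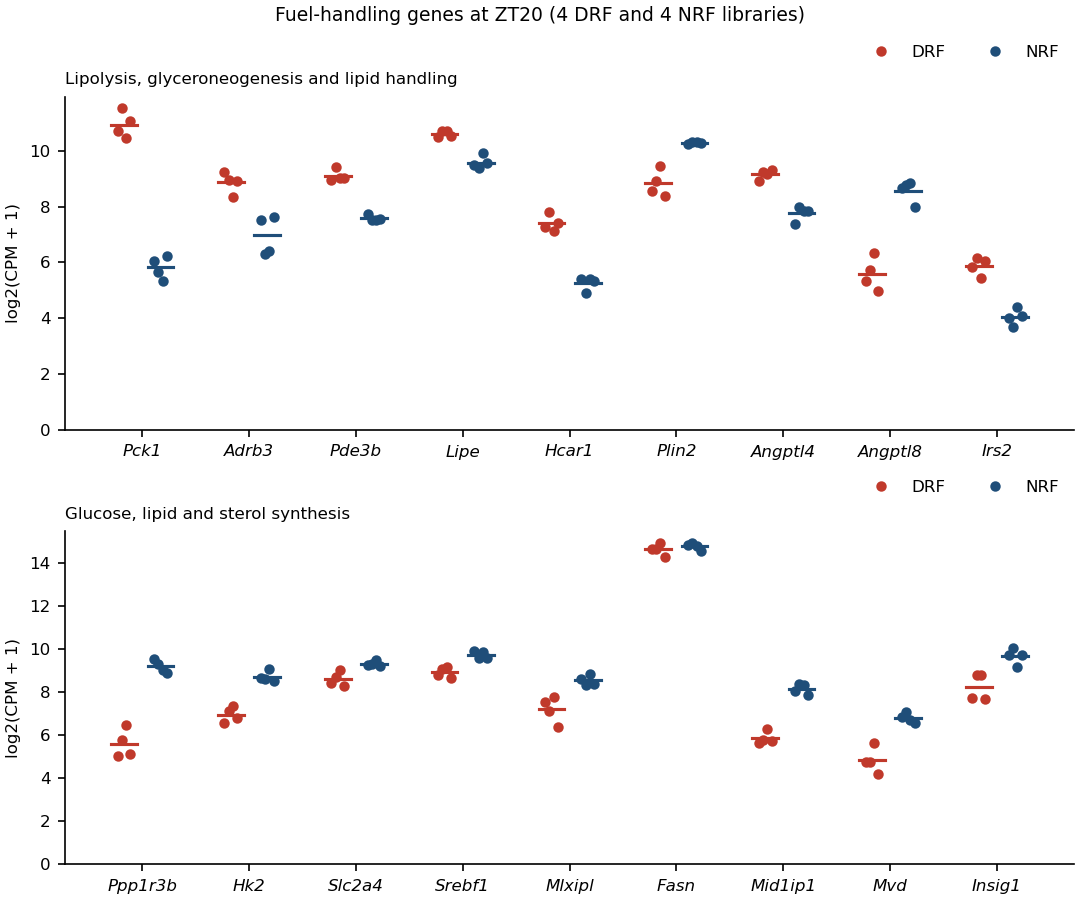
Levels of genes for fuel handling at ZT20, as log2(CPM + 1), with lipolysis, glyceroneogenesis and lipid handling above and glucose, lipid and sterol synthesis below. Points are single libraries and bars are group means; Pck1, Adrb3, Pde3b, Lipe and Irs2 lie higher in the 4 DRF libraries, and Angptl8, Plin2, Ppp1r3b and Hk2 lie higher in the 4 NRF libraries.

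Glyceroneogenesis and the pyruvate switch, a list of 7 genes, gave 4 higher and 1 lower (median 0.65), and 4 higher and 0 lower without DRF replicate 1. Besides Pck1, Aqp7, the glycerol channel of adipocytes, rose by 0.89 (adjusted p = 2.04e-05), and Pdk4, which shuts the pyruvate dehydrogenase complex, rose by 1.15 (adjusted p = 0.00423). In the lipoprotein lipase list, 4 of 9 genes were higher and 1 lower (median 0.49), and 7 were higher with voom weights. Angptl8 (chr9:21835510-21837347, GRCm38, plus strand), a feeding-induced protein that acts on lipoprotein lipase, read 39.0, 52.0, 79.1 and 30.8 CPM in the DRF libraries and 409, 436, 459 and 252 CPM in the NRF libraries. The NRF libraries were 7.75-fold higher in mean level (-2.98 ± 0.26 SE, adjusted p = 2.44e-05), while Angptl4, the fasting-induced inhibitor of the same lipase, rose by 1.39. Gpihbp1, which holds the lipase on capillary endothelium, rose by 0.49 (adjusted p = 0.000492); the summed level of 5 endothelial markers was also higher in DRF, at 888 to 983 CPM beside 734 to 877 CPM (exact two-sided permutation test, at the smallest p that 4 against 4 libraries can give), with 1 of 5 markers called, and its part in this result was not tested.

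In the insulin and FOXO list, 6 of 15 genes were higher and 2 lower (median 0.21). That is 53.3% called, beside 28.1% of all genes, 13.2% higher and 14.9% lower. Irs2, the insulin receptor substrate that FOXO factors induce in fasting, read 55.6, 69.9, 42.6 and 65.8 CPM in the DRF libraries and 15.0, 11.8, 20.2 and 16.1 CPM in the NRF libraries, with no overlap (1.83 ± 0.17 SE, adjusted p = 3.67e-05). Txnip, which curbs glucose uptake, rose by 1.19, and Sesn3, another FOXO target, by 0.59. The members that fell, Gadd45a (-1.80) and Bcl6 (-1.75), are also listed as FOXO-induced, so that the list did not move in 1 direction.

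Genes of fatty acid synthesis were lower in DRF or were not called. Of 16 lipogenic genes tested, 0 were higher and 6 lower, with a median of -0.37, and the counts were the same without DRF replicate 1, but 3 were lower with all 56 libraries in the fit. The carbohydrate-responsive factor gene Mlxipl fell by 1.34 (adjusted p = 0.00225), Srebf1 by 0.80, the desaturase gene Scd2 by 1.24 and the elongase gene Elovl5 by 0.73. Acly, which makes cytosolic acetyl-CoA, was -1.14 (adjusted p = 0.0232), a call that was lost in 4 of 8 fits with 1 library left out. The core enzymes Fasn (-0.13, SE 0.45, adjusted p = 0.857) and Acaca (-0.07, SE 0.23, adjusted p = 0.846) were not called. Scd1 has no read number, since its length could not be resolved, and it was not tested. Its deposited values were 141.3, 151.6, 149.7 and 146.3 in DRF and 141.3, 144.1, 139.1 and 141.8 in NRF. These groups overlap, and the mean was higher in DRF, at 147 (SD 4.50) beside 142 (SD 2.06). Among 10 genes of triglyceride synthesis 2 were higher and 5 lower (median -0.40), with Agpat2 falling by 1.04 and Dgat1 rising by 0.47; the lower count was 1 with the deposited values and 2 with all 56 libraries in the fit.

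Glucose uptake, glycolysis and glycogen, taken as 20 genes, gave 2 higher and 4 lower (median -0.12), so that 30% were called beside 28.1% of all genes. Besides Ppp1r3b, the fall was in Hk2, the insulin-induced hexokinase, which read 92.6, 139, 163 and 109 CPM in the DRF libraries and 397, 393, 534 and 362 CPM in the NRF libraries. No DRF library reached the NRF range (-1.75 ± 0.17 SE, adjusted p = 4.74e-05). Slc2a4, for the insulin-regulated glucose transporter GLUT4, fell by 0.72 (adjusted p = 0.00515).

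Genes of sterol synthesis were mostly lower in DRF. Of 19 genes for cholesterol synthesis enzymes, 12 were lower and 2 higher, with a median of -0.64, and 10 were lower and 2 higher without DRF replicate 1. Mvd, for mevalonate diphosphate decarboxylase, read 25.9, 25.8, 48.6 and 17.2 CPM in the DRF libraries and 112, 132, 104 and 94.7 CPM in the NRF libraries, without overlap (-1.97 ± 0.24 SE, adjusted p = 0.000163). Hsd17b7, Sc5d and Dhcr7, later enzymes of the pathway, fell by 1.78, 1.71 and 1.26. Among those that rose was Tm7sf2 (0.68), a reductase that acts on the sterol ring, whose call was lost without DRF replicate 2. Several enzymes of this list have processed copies elsewhere in the genome, Fdps among them, so that their reads may be divided.

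Of the genes that control sterol levels, Insig1, the sterol-sensing retention protein, fell by 1.41, Stard4, a cholesterol transfer protein, by 0.79, and Srebf2, the activator of sterol genes, by 0.49. In all, 5 of 11 genes for sterol sensing, uptake and efflux were lower and 1 was higher (median -0.16).

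Hmgcs1, for the cytosolic HMG-CoA synthase, fell by 0.80 (adjusted p = 0.00840). It is the 1 gene among 14 matched cholesterol enzymes whose promoter window holds the letters TCACNCCAC, a form of the sterol regulatory element (SRE) at which SREBP factors bind, found in 1.44% of all promoter windows. The match, in capitals, lies 137 bases before the start, in the stretch chr13:119690201-119690300 of GRCm38.p6 (RefSeq, plus strand).
Hmgcs1: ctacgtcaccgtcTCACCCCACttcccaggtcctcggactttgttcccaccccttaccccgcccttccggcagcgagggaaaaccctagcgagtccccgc
No such letters in the other windows says only that this spelling is not in those 300 bases.

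Genes of fatty acid oxidation were, where called, mostly higher in DRF. Of 21 genes for fatty acid oxidation and ketogenesis tested, 11 were higher and 2 lower (median 0.41), and 14 were higher and 2 lower without DRF replicate 1, but 7 were higher without DRF replicate 2 or NRF replicate 4 and 5 with the deposited values. Ppara, the receptor that induces oxidation genes in fasting, rose by 1.05 (adjusted p = 0.000915), Cpt1a, which admits long-chain fatty acids to mitochondria, by 0.63, and Ehhadh of the peroxisome by 0.76. The 2 that fell were Ucp3 (-1.12), a mitochondrial carrier, and Acot1 (-0.71), a cytosolic acyl-CoA thioesterase. Catabolism of branched-chain amino acids gave 8 higher and 0 lower of 18 (median 0.25), or 11 and 0 without DRF replicate 1, with 5 higher where DRF replicate 2, 3 or 4 or NRF replicate 1 or 4 was left out or all 56 libraries were fitted and 2 higher with the deposited values. There Ppm1k, the phosphatase that activates the branched-chain ketoacid dehydrogenase, rose by 1.14, and Bckdhb, a subunit of that enzyme, by 0.52.

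Heat shock genes were mostly lower in DRF. Of 15 heat shock and cold-inducible genes, 11 were lower and 1 was higher in DRF, with a median of -0.55 (9 lower and 1 higher without DRF replicate 1, and 7 lower with the deposited values). Hspa8 (chr9:40800984-40810087, GRCm38, plus strand), the constitutive HSC70 chaperone, read 709, 970, 690 and 773 CPM in the DRF libraries and 2640, 2703, 2860 and 2515 CPM in the NRF libraries. The highest DRF library held less than the lowest NRF library, at -1.78 ± 0.14 (SE), adjusted p = 1.30e-05. Dnaja1, its HSP40 partner, read 158, 178, 199 and 183 CPM in the DRF libraries and 468, 490, 504 and 429 CPM in the NRF libraries, and Hsph1, a nucleotide exchange factor for HSP70, fell by 1.74. These groups did not overlap either, and for Dnaja1 the difference was -1.39 ± 0.09 (SE), adjusted p = 4.67e-06. The gene that rose was Cirbp (0.74, adjusted p = 0.00939), which is cold-inducible and not a heat shock gene. Hspa1a (-0.90) and Hspa1b (-0.84) are near-identical copies whose reads can be divided between them, so their separate values are uncertain.

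The promoter of Dnaja1 is printed because the letters GAANNTTC, 2 facing units of a heat shock element (HSE), were found in 7 of the 10 matched genes of this list (Hspa1a, Hspa1b, Hsph1, Dnaja1, Hspd1, Hspe1 and Bag3), beside 9.04% of all promoter windows. The match lies 124 bases before the start of the first of 3 listed transcripts, in chr4:40722308-40722407 of GRCm38.p6 (RefSeq, plus strand), and stands in capitals.
Dnaja1: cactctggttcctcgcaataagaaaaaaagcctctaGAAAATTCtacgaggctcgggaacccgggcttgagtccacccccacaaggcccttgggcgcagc
The match lies inside the GENCODE span of Dnaja1, which starts upstream of the RefSeq transcript. Binding of heat shock factors was not measured.

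Genes of ribosome biogenesis were mostly lower in DRF, while most genes of the endoplasmic reticulum and amino acid response lists were not called. Ribosome biogenesis had 17 lower and 0 higher of 24 genes (median -0.41), and the same counts without DRF replicate 1, among them the rRNA methyltransferase gene Nop2 (-0.83), the box C/D protein gene Nop58 (-0.69) and Polr1a, for the large subunit of RNA polymerase I (-0.62). Chaperones of the endoplasmic reticulum gave 5 lower and 2 higher of 19 (median -0.17), so that 36.8% were called beside 28.1% of all genes. Hspa5, for BiP, fell by 0.63 and Manf by 0.66. The lower count was 3 without DRF replicate 3 or NRF replicate 2 or 4 or with the deposited values, and 8 when scaled by total reads. Of 9 amino acid response genes 3 were lower and 1 higher (median -0.03), or 44.4% called. Atf4, its central factor, fell by 0.92 and Slc3a2, a heavy chain of amino acid transporters, by 1.30, while Sesn2, a leucine-sensing inhibitor of mTORC1, rose by 0.70.

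Glucocorticoid receptor and target genes gave 7 higher and 0 lower of 12, with a median of 0.55. The count was 9 higher without DRF replicate 1 but 4 with the deposited values or with all 56 libraries in the fit, and groups did not overlap for 4 of the 12 genes, beside 29.2% of all genes tested. Hsd11b1 (chr1:193221634-193264075, GRCm38, minus strand), whose enzyme regenerates active glucocorticoid inside cells, read 113, 204, 166 and 148 CPM in the DRF libraries and 45.0, 52.2, 52.9 and 45.4 CPM in the NRF libraries. All DRF values were above all NRF values (1.64 ± 0.15 SE, adjusted p = 3.06e-05). Fkbp5, a receptor cochaperone and common reporter of glucocorticoid action, rose by 1.29, Zbtb16 by 1.24 and Mt1, a metallothionein, by 1.15. Tsc22d3, another common target, was not called (-0.07, SE 0.14, adjusted p = 0.757).

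Secreted factors of fat moved in both directions, with 3 higher and 5 lower of 13 tested adipokine genes (median -0.03), and 3 lower without DRF replicate 2 or NRF replicate 2; with the deposited values 1 was higher and 2 lower. Leptin (Lep) read 284, 351, 625 and 720 CPM in the DRF libraries and 607, 1322, 1533 and 1076 CPM in the NRF libraries. The groups overlap, and the fall of 1.22 (SE 0.33, adjusted p = 0.0172) was no longer called without DRF replicate 2 or without NRF replicate 2. Fgf21, a hormone of nutrient stress, was at 0.105 to 0.294 CPM in DRF and at 1.74 to 5.96 CPM in NRF (-1.91 ± 0.23 SE, adjusted p = 0.000180). Apln, an insulin-induced peptide, fell by 1.43 and Cfd, for adipsin, by 1.09. Nrg4 rose by 0.62, and Adipoq, for adiponectin, was not called (0.04, SE 0.17, adjusted p = 0.891).

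The remaining lists are read beside the 13.2% of all genes called higher and the 14.9% called lower. Collagens and collagen processing had 7 lower and 2 higher of 19 (median -0.24), with P4ha1, a subunit of collagen prolyl hydroxylase, at -0.93, the collagen chaperone gene Serpinh1 at -0.92 and Col6a3 at -0.60; 4 were lower with the deposited values or with all 56 libraries. The summed level of 6 markers of progenitors, cells that make much of the matrix, was 1856 to 2174 CPM in DRF and 2128 to 2539 CPM in NRF (exact p = 0.0571), with 1 of 6 markers called, and its part was not tested. Interferon-stimulated genes had 4 lower and 0 higher of 15 (median -0.25), such as Rtp4 at -0.79; the 26.7% called is near the 28.1% called over all genes, and the lower count was 2 with all 56 libraries in the fit. Proliferation genes had 6 higher and 0 lower of 15 (median 0.52), such as Cdk1 at 0.98, a count that was 10 without DRF replicate 1, 3 without DRF replicate 4 or NRF replicate 2, and 2 without DRF replicate 2 or 3 or NRF replicate 3 or 4, 2 with the deposited values or without a filter, and 0 with all 56 libraries. Immediate early genes were mostly uncalled, with 1 higher, 2 lower and 14 uncalled of 17 (median -0.05), or 17.6% called. Thermogenic genes gave 1 higher, Cox7a1 (0.73), and 1 lower, Dio2 (-1.61), of 9 (median 0.27), or 22.2% called, and both shares are below that of all genes.

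The counts without DRF replicate 1 that have not yet been given were these. The insulin and FOXO list had 7 higher and 2 lower, the lipoprotein lipase list 5 and 1, the triglyceride list 3 and 5, the sugar list 2 and 4, and the sterol sensing list 2 and 5. The amino acid response list had 1 higher and 3 lower, the endoplasmic reticulum list 2 and 4, the adipokines 4 and 4, the collagens 3 and 7, the interferon list 0 and 6, the immediate early genes 2 and 2, and the thermogenic genes 1 and 1. In several lists the smaller count, of 1 or 2 genes, moved by 1 or 2 when another library was left out.

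**Figure D3:**
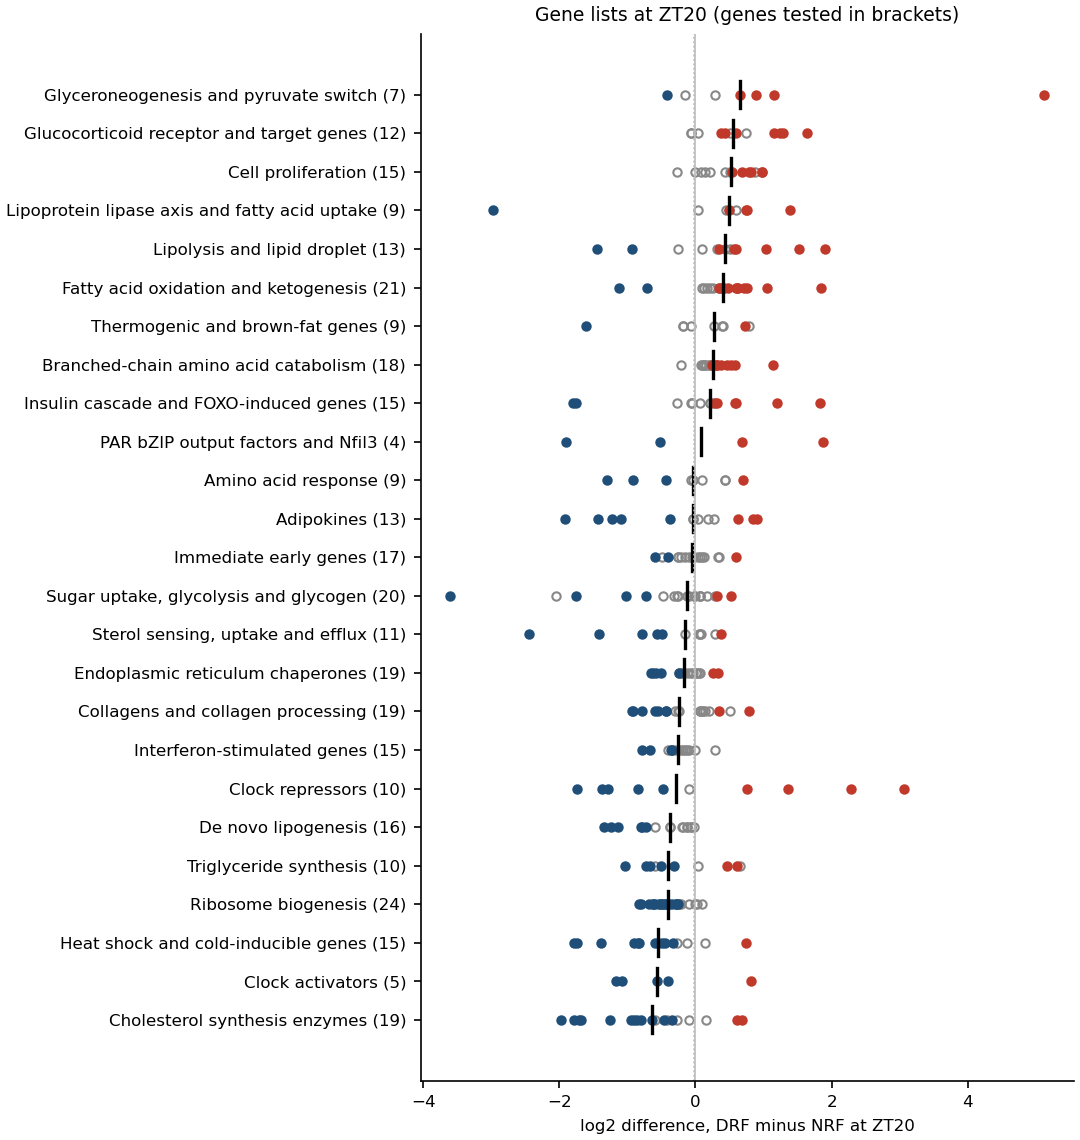
Log2 differences (DRF minus NRF at ZT20, horizontal axis) of the genes of 25 lists, ordered by their median (black bar), with the number of genes tested in brackets. Red points were called higher, blue points lower and open grey points not called; the dotted line is the median of all 15543 genes, -0.02, and cholesterol synthesis has the lowest list median, -0.64, and glyceroneogenesis the highest, 0.65.

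Markers of the other cell types that visceral fat or its neighbours could hold were summed in the same libraries. Red cell and neutrophil markers summed to 319 to 730 CPM in DRF and 226 to 345 CPM in NRF (exact p = 0.0571), with 5 of 7 tested markers called higher, Alas2 among them (0.87); Hba-a1 and Hba-a2 are near-identical copies and S100a9 was under 1 CPM in all 8 libraries. Macrophage markers summed to 797 to 1092 CPM in DRF and 1000 to 1140 CPM in NRF, with 2 of 6 called lower, Mrc1 among them (-0.60). Mesothelial markers summed to 337 to 423 and 350 to 466 CPM, with 3 of 5 called lower. The share called was 71.4% for the red cell and neutrophil, 33.3% for the macrophage and 60.0% for the mesothelial markers, beside 28.1% of all genes. Skeletal muscle markers ranged from 20.7 to 223 CPM in DRF and from 17.7 to 110 CPM in NRF with 0 of 6 called. Lymphocyte markers summed to 8.19 to 14.2 CPM over both regimens, and exocrine pancreas markers to at most 0.105 CPM. Smooth muscle markers summed to 216 to 507 CPM in DRF and 242 to 354 CPM in NRF, liver markers to 25.0 to 42.0 and 16.4 to 39.9 CPM, uterine and oviduct epithelium markers to 15.1 to 18.2 and 15.7 to 20.5 CPM, and ovary markers to 5.52 to 8.03 and 6.81 to 7.92 CPM. Of the 5, 2, 3 and 1 tested markers of these lists, in that order, 0 were called. DRF replicate 1, which the second principal component set apart, held the highest skeletal muscle sum (223 CPM, beside 20.7 to 149 CPM in the other DRF libraries). It also held the highest smooth muscle sum (507 CPM, beside 216 to 339 CPM) and the lowest adipocyte sum in DRF (19859 CPM). In whole tissue, fewer cells of a type and less RNA per cell cannot be told apart, and the part of these cells in the list results was not tested.

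The same contrast was made at ZT8, in the light phase, where DRF mice had food and NRF mice did not. There 1073 of 15933 genes were called, 6.73%, with 587 higher (3.68%) and 486 lower (3.05%) in DRF. In DRF ZT8 replicate 1 the uterine and oviduct markers summed to 430 CPM, beside 13.7 to 30.3 CPM in the other ZT8 libraries, and the ovary markers to 41.9 CPM, beside 12.4 to 18.3 CPM. Its adipocyte markers summed to 8838 CPM, beside 18488 to 25771 CPM in the other 7. The smooth muscle markers of that library summed to 1003 CPM, beside 242 to 806 CPM. In NRF ZT8 replicate 2 the macrophage markers summed to 1825 CPM, beside 606 to 1079 CPM in the other 7. Its lymphocyte markers summed to 33.2 CPM, beside 12.0 to 19.7 CPM. In NRF ZT8 replicate 4 the skeletal muscle markers summed to 544 CPM, beside 10.1 to 75.2 CPM. The part of these tissues and cells in the contrasts that use these libraries was not tested. Without DRF ZT8 replicate 1 the count was 2268 genes (14.5%), 1353 higher and 915 lower. The count was 885, 439 and 290 without DRF ZT8 replicates 2, 3 and 4, and 212, 367, 1196 and 241 without NRF ZT8 replicates 1 to 4. The ZT8 and ZT20 contrasts share no library. Of 15359 genes tested at both times 802 were called at both, which is 18.5% of the ZT20 calls and 75.5% of the ZT8 calls, or 184 without NRF ZT8 replicate 1 to 1262 without DRF ZT8 replicate 1, and 787 of the 802 (98.1%) had opposite directions, or 96.0% without DRF ZT8 replicate 1 and up to 98.6% without another library. The difference of the regimen effects, tested as an interaction, was called for 4350 of 15800 genes (27.5%).

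Among the genes with the largest opposite changes were Pck1, Ppp1r3b, Angptl8, Mid1ip1, Osgin1, Hcar1 and Smtnl2. Pck1 averaged 168 ± 169 CPM in DRF and 2278 ± 1044 CPM in NRF at ZT8 (SD, n = 4 each), so that the regimen effect was -4.12 there, and the interaction was 9.24 (SE 0.76, adjusted p = 6.63e-07). Ppp1r3b went the other way, from 4.57 at ZT8 to -3.60 at ZT20, and so did Angptl8, from 3.20 to -2.98. The counts of whole lists also turned. Cholesterol synthesis had 14 higher and 0 lower of 19 genes at ZT8 (median 1.56) beside 2 higher and 12 lower at ZT20, and the heat shock and cold-inducible list had 5 higher and 0 lower of 15 beside 1 higher and 11 lower. Ribosome biogenesis had 5 higher and 0 lower at ZT8 beside 0 and 17 at ZT20. At ZT8 these higher counts were 17, 6 and 5 without DRF ZT8 replicate 1, and with any of the other 7 libraries left out they ran from 6 to 16, from 1 to 4 and from 1 to 7.

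Called in the same direction at both times were 15 genes, or 50 without DRF ZT8 replicate 1 and 3 to 18 without another ZT8 library, and among those with the largest smaller difference were Hsd11b1, Podnl1, Pcsk4, Dmpk, Gramd1b, Cystm1 and Col18a1. For Hsd11b1 the mean was 90.4 ± 60.4 CPM in DRF and 25.5 ± 7.31 CPM in NRF at ZT8, which is a difference of 1.62 (adjusted p = 0.0416), beside 1.64 at ZT20. The interaction was 0.02 (SE 0.46, adjusted p = 0.978). Podnl1, a small leucine-rich proteoglycan gene, was 2.97 and 1.33, and Pcsk4, of the proprotein convertase family, was -1.26 and -1.20. The ZT8 calls of Podnl1 and Pcsk4 were made in all 8 fits with 1 ZT8 library left out, that of Hsd11b1 was lost in 6 of them, and those of Dmpk, Gramd1b, Cystm1 and Col18a1 in 5 to 7. Gramd1b also lost its ZT20 call without DRF replicate 2 or 3 or NRF replicate 2 or 4.

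**Figure D4:**
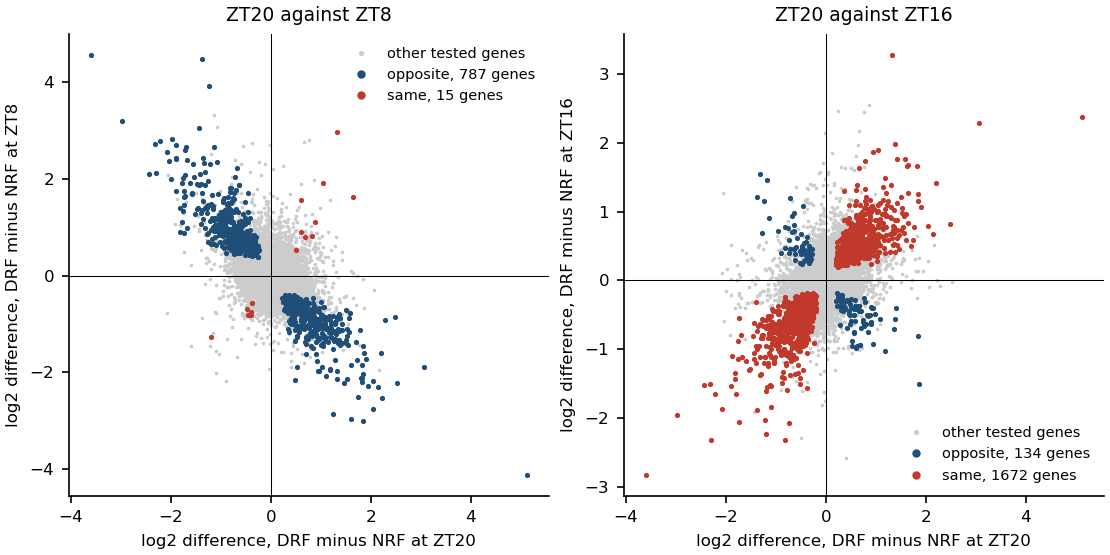
Regimen effects (DRF minus NRF, log2) at ZT20 on the horizontal axis against those at ZT8 (left) and ZT16 (right), 1 point per gene. Genes called at both times are coloured, blue for opposite and red for same direction; at ZT8 787 are opposite and 15 the same, and at ZT16 134 are opposite and 1672 the same.

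At ZT16, early in the dark phase, NRF mice were fed and DRF mice were not, as at ZT20. The contrast there called 4069 of 15592 genes (26.1%), 2038 higher and 2031 lower, from libraries that are not those of ZT20, and 2904 to 3661 with 1 of them left out. In DRF ZT16 replicate 3 the uterine and oviduct markers summed to 79.2 CPM, beside 16.8 to 26.9 CPM in the other 7, and without it 3474 genes were called. The skeletal muscle markers of DRF ZT16 replicate 2 summed to 409 CPM, beside 14.6 to 222 CPM in the other 7. Without that library 3218 genes were called, and the part of these tissues was not tested. Of 15346 genes tested at both times 1806 were called at both, 41.6% of the ZT20 calls and 44.6% of the ZT16 calls, and 1672 of them (92.6%) shared their direction, or 93.4% without DRF ZT16 replicate 3 and 88.1% without NRF ZT16 replicate 4. The interaction of regimen and time between ZT16 and ZT20 was called for 1634 of 15569 genes (10.5%), 812 upward (5.22%) and 822 downward (5.28%), and for 697 when all 56 libraries shared 1 fit.

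Some of the gene groups ran the other way at ZT16, where 13.1% of all genes tested were called higher in DRF and 13.0% lower. Of the 19 cholesterol genes 9 were higher in DRF and 2 lower at ZT16 (median 0.42), and the interaction was called downward for 14 of them. Lipogenic genes gave 7 higher and 2 lower of 16 at ZT16 (median 0.61), with 7 interactions downward, and genes of sugar uptake and glycolysis 8 higher and 3 lower of 20 (median 0.37), with 5 downward. The collagen list had 8 higher and 1 lower of 19 at ZT16 (median 0.15), or 3 higher without DRF ZT16 replicate 1, 2 or 4 or NRF ZT16 replicate 1 and 4 without NRF ZT16 replicate 2, and the interaction was called downward for 5. None of these 4 lists held an interaction called upward. Other groups leaned as at ZT20. Ribosome biogenesis genes had 0 higher and 12 lower of 24 at ZT16 (median -0.22), or 7 lower without DRF ZT16 replicate 1 and 8 without DRF ZT16 replicate 2, heat and cold shock genes 1 higher and 5 lower of 15 (median -0.14), or 3 lower when any single ZT16 library was left out except NRF ZT16 replicate 3, without which 7 were lower, and fat oxidation genes 10 higher and 2 lower of 21 (median 0.14). The interaction was called downward for 5 heat and cold shock genes and 2 ribosome biogenesis genes, and upward for 3 fat oxidation genes. Over all genes tested it was called downward for 5.28% and upward for 5.22%. Of the lists that leaned higher in DRF at ZT20, some did so less or not at all at ZT16. Lipolysis and the lipid droplet had 2 higher and 4 lower of 13 (median 0.16), with 6 interactions upward and 1 downward. The glucocorticoid list had 2 higher and 1 lower of 12 (median -0.22), with 2 upward. Branched-chain catabolism had 5 higher and 3 lower of 18 (median 0.12), with 5 upward. Glyceroneogenesis kept 4 higher and 1 lower of 7, and proliferation had 12 higher and 0 lower of 15. The clock lists did not all lean as at ZT20. Of 5 clock activators 3 were higher and 1 lower in DRF at ZT16 (median 0.34), with 2 interactions upward and 3 downward. Of 10 repressors 1 was higher and 7 were lower, with 4 interactions upward, and all 4 PAR bZIP genes were lower, with 3 upward.

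The largest of these interactions under the naming rule were those of Dbp, Nnat, Prune2, Pck1, Celsr2 and Npas2. Dbp was lower in DRF at ZT16, with 20.6 ± 6.96 CPM beside 62.0 ± 25.5 CPM in NRF (SD, n = 4 each), and higher in DRF at ZT20, so that the interaction was 3.38 (SE 0.40, adjusted p = 0.0001). Npas2 went from 1.46 to -1.17, Prune2 from 1.55 to -1.31 and Celsr2 from -0.81 to 1.85. For Pck1 the effect was positive at both times, 2.38 at ZT16 and 5.12 at ZT20. Nnat, an imprinted gene, was -2.58 at ZT16 and was not called at ZT20 (0.40, adjusted p = 0.693). Among the clock genes Nr1d1 was higher in DRF at both times (2.29 and 3.07), whereas Nr1d2 was not called at ZT16 (-0.08, adjusted p = 0.769) and the interaction for it was 2.38 (adjusted p = 3.01e-05).

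**Figure D5:**
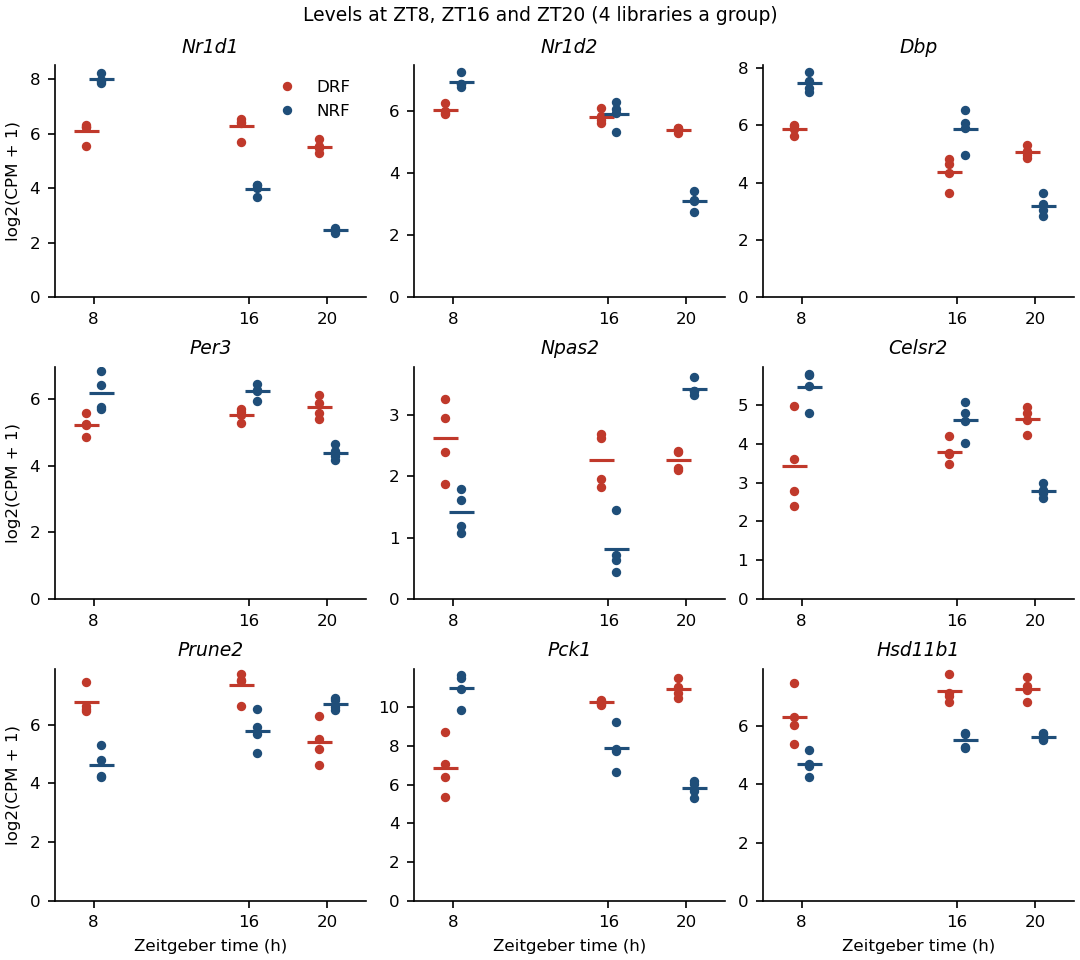
Levels of 9 genes as log2(CPM + 1) at ZT8, ZT16 and ZT20, with points for single libraries and bars for the means of the 4 libraries of each regimen. The regimen effect on Pck1 is negative at ZT8 and positive at ZT16 and ZT20, that on Dbp turns between ZT16 and ZT20, and Hsd11b1 is higher in DRF at all 3 times.

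Finally, the groups of ZT20 were set against the groups 12 h away that had the same access to food. These contrasts reuse the ZT20 and ZT8 libraries, so their values are given beside the others and not as separate support. Between the fed groups, NRF at ZT20 and DRF at ZT8, 24 of 15746 genes were called (0.152%), 15 higher (0.0953%) and 9 lower (0.0572%) in NRF at ZT20, and 1517 (9.63%) had an unadjusted p under 0.05. The smallest p-values were those of Nr1d1 (-3.64, SE 0.17, adjusted p = 5.95e-05), Nr1d2 (-2.91) and Dbp (-2.68), and of the 24 genes these 3 were called in all 8 fits with 1 library left out. Hsph1 was 1.65 and Cry1 1.42 in this contrast, called in 5 and 4 of the 8 fits. The number of calls was 96 without DRF ZT8 replicate 1 (0.621% of those tested, 0.356% higher and 0.265% lower), 4, 15 and 9 without DRF ZT8 replicates 2, 3 and 4, 6 without NRF ZT20 replicate 4, and 3 without NRF ZT20 replicate 1, 2 or 3.

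Between the groups without food, DRF at ZT20 and NRF at ZT8, 1480 of 15696 genes were called (9.43%), 800 higher (5.10%) and 680 lower (4.33%) in DRF at ZT20, and 29.4% had an unadjusted p under 0.05. Scaling by total reads, which moved the median of all genes from 0.01 to -0.11, turned this split to 509 higher and 1245 lower. Nr1d1 was -2.46 (SE 0.12, adjusted p = 1.68e-05), Dbp -2.40, Arntl 1.99 and Hsd11b1 2.59, while Pck1 was not called (-0.06, adjusted p = 0.936). This count ran from 231 without DRF ZT20 replicate 2 to 2848 without NRF ZT8 replicate 3, with 264 and 715 without DRF ZT20 replicates 3 and 4, and 442, 586 and 388 without NRF ZT8 replicates 1, 2 and 4. Cholesterol synthesis genes were 7 higher and 0 lower of 19 (median 0.96). The number of calls differed between the fed and the unfed pair of groups, but a test of that difference was not made.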

How the data were processed

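VAT RNA was sequenced as polyA libraries (NEBNext Ultra, a kit that does not mark strand; paired 150-base reads on the NovaSeq platform). Per the submitters' processing notes, HISAT2 2.0.5, featureCounts 1.5.0-p3 and mm10 were used. The values the authors deposited, 1 table for all libraries, behave as a score: a log2-like quantity scaled by exon length, not the unit its name gives. They are comparable within a gene only. With union exon lengths of GENCODE M21 (GRCm38), whole reads were recovered from them: of 1262086 values of 1 to 10000 reads, 99.9996% lay within 0.02 of a whole number. Lengths came from the annotation for 25057 of 25939 genes and from the values for 880, Scd1 could not be resolved, and mt-Co1 was too abundant to test. No column was left out.

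CPM used the effective library size that the deposited values imply for each library. Genes with a mean CPM of at least 0.5 over the libraries of a contrast were fitted on log2(CPM + 1) with limma 3.58.1 (R 4.3.3) with an intensity trend, two-sided, with Benjamini-Hochberg adjustment and a threshold of 0.05; a fold on this scale understates changes of low genes. Python 3.11.15, numpy 2.4.6, pandas 2.3.3, scipy 1.17.1 and matplotlib 3.10.9 were used for the rest, and the fit was tested on simulated data. Count models were not run, since the recovered reads were derived from a deposited score. Summed marker levels were compared by an exact two-sided permutation test. The replicates are separate libraries, and at ZT20 no 2 libraries of the same regimen agreed within counting noise.

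The comparison, the lists and the named genes were chosen with earlier results of these data known. Named were members of 25 pathway lists and 13 marker lists, in each list those with the smallest p and those that define the pathway, the 10 largest rises and 10 largest falls among called genes with groups that do not overlap and a mean of at least 5 CPM, the 8 with the largest shared and the 8 with the largest opposite change at ZT8, and the 6 largest interactions with ZT16, leaving out predicted-gene symbols. Leptin, Adipoq, Fasn, Acaca, Ciart and Tsc22d3 are named as known genes that define their lists. Alternatives were scaling by total reads or median ratios, pseudocounts of 0.5 and 0.1, a filter at 2 CPM or none, voom weights, no intensity trend, all 56 libraries in 1 fit, the deposited values, a replicate block and leaving out each library; leaving out each library at ZT8 and ZT16 was added after the data had been seen. Some genes that these rules choose are not reported here.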

Additional observations from a re-analysis of the deposited data

Results flagged for a closer look

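In 8 of 234 gene and group combinations tested, 1 of 4 libraries stood apart from the other 3 beyond Dixon's 95% criterion on the gap over the range, where chance gives about 1 in 20. G0s2 was at 135 CPM in DRF replicate 1, beside 215 to 227 in the others. Pde3b was at 682 CPM in DRF replicate 2, beside 498 to 521. Hspa1b was at 8.17 CPM in DRF replicate 2, beside 10 to 10.2. Serpina3b was at 1.40 CPM in DRF replicate 4, beside 2.80 to 2.96. Among the NRF libraries, Hspa1a was at 9.86 CPM in replicate 1 beside 4.85 to 5.31, and Ppm1k at 11 CPM in replicate 1 beside 6.94 to 7.49. Hcar1 was at 29.3 CPM in NRF replicate 2 beside 39.6 to 41.5, and Fkbp5 at 19.2 CPM in NRF replicate 4 beside 33.7 to 37.5. For G0s2, Pde3b, Hspa1b, Hspa1a, Serpina3b, Ppm1k, Hcar1 and Fkbp5, the call at ZT20 held without the library that stood apart.

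The regimen effect differed between time points by the interaction term for 4350 genes (ZT20 minus ZT8) and 1634 genes (ZT20 minus ZT16). Against ZT8 the interaction was 9.24 for Pck1, -8.18 for Ppp1r3b, -6.18 for Angptl8, -5.04 for Mid1ip1, -5.00 for Osgin1, 4.45 for Hcar1 and -4.41 for Smtnl2 on the log2 scale. Against ZT16 it was 3.38 for Dbp, 2.98 for Nnat, -2.87 for Prune2, 2.75 for Pck1, 2.66 for Celsr2 and -2.63 for Npas2.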

How the results depend on the processing

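The count of genes called at ZT20 ran from 3062 (deposited values) to 5062 (replicate block) over the alternatives, beside 4373, and from 3256 to 4979 with 1 library left out. The contrast at ZT8 ran from 212 to 2268 and that at ZT16 from 2904 to 3661 with 1 library left out, fits added after the data had been seen. The interaction with ZT8 ran from 3660 to 5337 with 1 library left out and was 5548 with all 56 libraries, and that with ZT16 from 1099 to 1872 and 697 with all 56 libraries. The contrast of the unfed groups was 2363 with the replicate block and 231 to 2848 with 1 library left out, and that of the fed groups 3 with the block and 3 to 96. Of 117 named genes 111 were called; 94 kept that call in every setting, 16 lost it in at least 1, Fgf21 was under the filter at 2 CPM and kept it in the others, and none of the 111 reversed. Uncalled genes changed sign in 7 cases over 4 of the 8 fits with 1 library left out, their values running from -0.19 to 0.07 for Tsc22d3 (positive without DRF replicate 1), from -0.18 to 0.09 for Acaca (positive without DRF replicate 4), from -0.03 to 0.12 for Adipoq (negative without DRF replicate 4, NRF replicate 1 or NRF replicate 2) and from -0.25 to 0.82 for Nnat (negative without DRF replicate 4 or NRF replicate 1). List counts of at least 3 genes moved by over 1.5 times as follows, apart from the fits with 1 library left out, which are given with each list. With the deposited values, the clock activators had 2 genes lower, heat shock 7, triglyceride synthesis 1, the endoplasmic reticulum list 3, collagens 4 and adipokines 2, and fat oxidation had 5 higher, the glucocorticoid list 4, branched-chain catabolism 2, proliferation 2 and adipokines 1. With all 56 libraries, lipogenesis had 3 lower, triglyceride synthesis 2, collagens 4 and interferon genes 2, and the glucocorticoid list had 4 higher, branched-chain catabolism 5, adipokines 1 and proliferation 0. Proliferation had 2 higher without a filter, branched-chain catabolism 5 without the intensity trend, the lipoprotein lipase list 7 with voom weights or without the trend, and the endoplasmic reticulum list 8 lower when scaled by total reads. The cause was not tested.

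Same-numbered DRF and NRF libraries correlated at 0.329, 0.199, 0.0224 and 0.0702 across genes after removal of group means. Libraries of different numbers ran from -0.339 to 0.211. DRF replicates 1 and 2 correlated best with the NRF library of their own number. DRF replicate 3 correlated best with NRF replicate 2 (0.211), and DRF replicate 4 with NRF replicate 3 (0.175). The numbers were not taken to pair samples, and what they mark was not tested. The replicate block changed the call of 0 of the 117 named genes; it gave 4856 and 1714 calls for the interactions with ZT8 and ZT16. With 4 libraries a group and the read totals given above, low genes such as Fgf21 rest on few reads.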
